A study of Bos taurus with 6 samples.

Results

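The genes described here are the splicing factors and heterogeneous nuclear ribonucleoproteins (hnRNPs) measured in the back muscle of steers from 2 cattle breeds. They were taken by symbol: every gene whose name begins with HNRNP, HNRP, SRSF, SFRS, SF3, SNRP, U2AF, RBM or LSM and that has a probe set annotated to that gene alone. This gave 84 genes with 128 probe sets, out of 9155 genes and 24016 probe sets in all, and each gene was read at its brightest probe set. All 84 also passed the filter on dim probe sets. Longissimus dorsi, a long muscle of the back, was sampled from 3 Japanese Black steers, a beef breed, and 3 Holstein steers, a dairy breed, with 1 Affymetrix array per animal. All 6 animals were male and had been given an energy-rich feed, so the arrays compare the breeds under that feed and hold no steers on another feed. Ages and genotypes are not given in the labels. With so few arrays, all values below have limited precision.

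Introns are cut out of pre-mRNA by the spliceosome, which is built from small nuclear ribonucleoprotein particles (snRNPs), each a short RNA with a ring of Sm or LSM proteins and its own further proteins. SR proteins, which carry stretches rich in arginine and serine, generally promote the use of the exons they bind, while hnRNPs coat nascent RNA and often repress exons, so the balance of both classes sets many alternative exons. Striated muscle relies on this heavily, because titin, troponin T and many other sarcomere genes are made as fibre- and stage-specific isoforms. The symbols do not guarantee a role in splicing. LSM1 and LSM14A act mainly in mRNA decay and in cytoplasmic mRNP granules, RBM3 is a cold-inducible protein linked to translation, and several RBM proteins bind mature mRNA.

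No splicing factor or hnRNP gene passed the test between the breeds. The genes with a log2 difference above 0, Japanese Black minus Holstein, numbered 43 and those below 0 numbered 41, so 51.2% lay above 0, against 48.7% of the 8050 genes tested. The median log2 difference was 0.017 for the 84 genes and -0.0089 for all genes tested. Differences are on the log2(signal + 16) scale, where an offset of 16 intensity units was added before the logarithm, and they ran between -0.66 for SRSF7 and 0.81 for SF3B5. Of the 84 genes, 0 passed an adjusted p of 0.05 (limma, Benjamini-Hochberg over the 18012 probe sets tested), where the share called was 0.0167% of all probe sets and 0.0248% of all genes. At an unadjusted p under 0.05 there were 4, or 4.76%, against 11.3% of all genes. Of these 4, SF3B5 and HNRNPH3 lay toward Japanese Black (5.84% of all genes did) and HNRNPA0 and SRSF7 toward Holstein (5.42%). All 3 animals of one breed lay above all 3 of the other for 10 of the 84 genes, or 11.9%, against 19.2% of all genes. These were SF3B5, HNRNPH3, RBM17 and LSM14A on the Japanese Black side (10.2% of all genes) and HNRNPA0, RBM23, RBM15B, LSM2, LSM7 and U2AF1L4 on the Holstein side (8.96%). For 2 of the 84 genes, SF3B5 and HNRNPA0, the breed difference was larger than the range within either breed. The share of all genes with such a difference was not counted, so this number has no background to be read against. In bulk muscle, fewer cells of a type and less RNA per cell cannot be told apart.

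**Figure D1:**
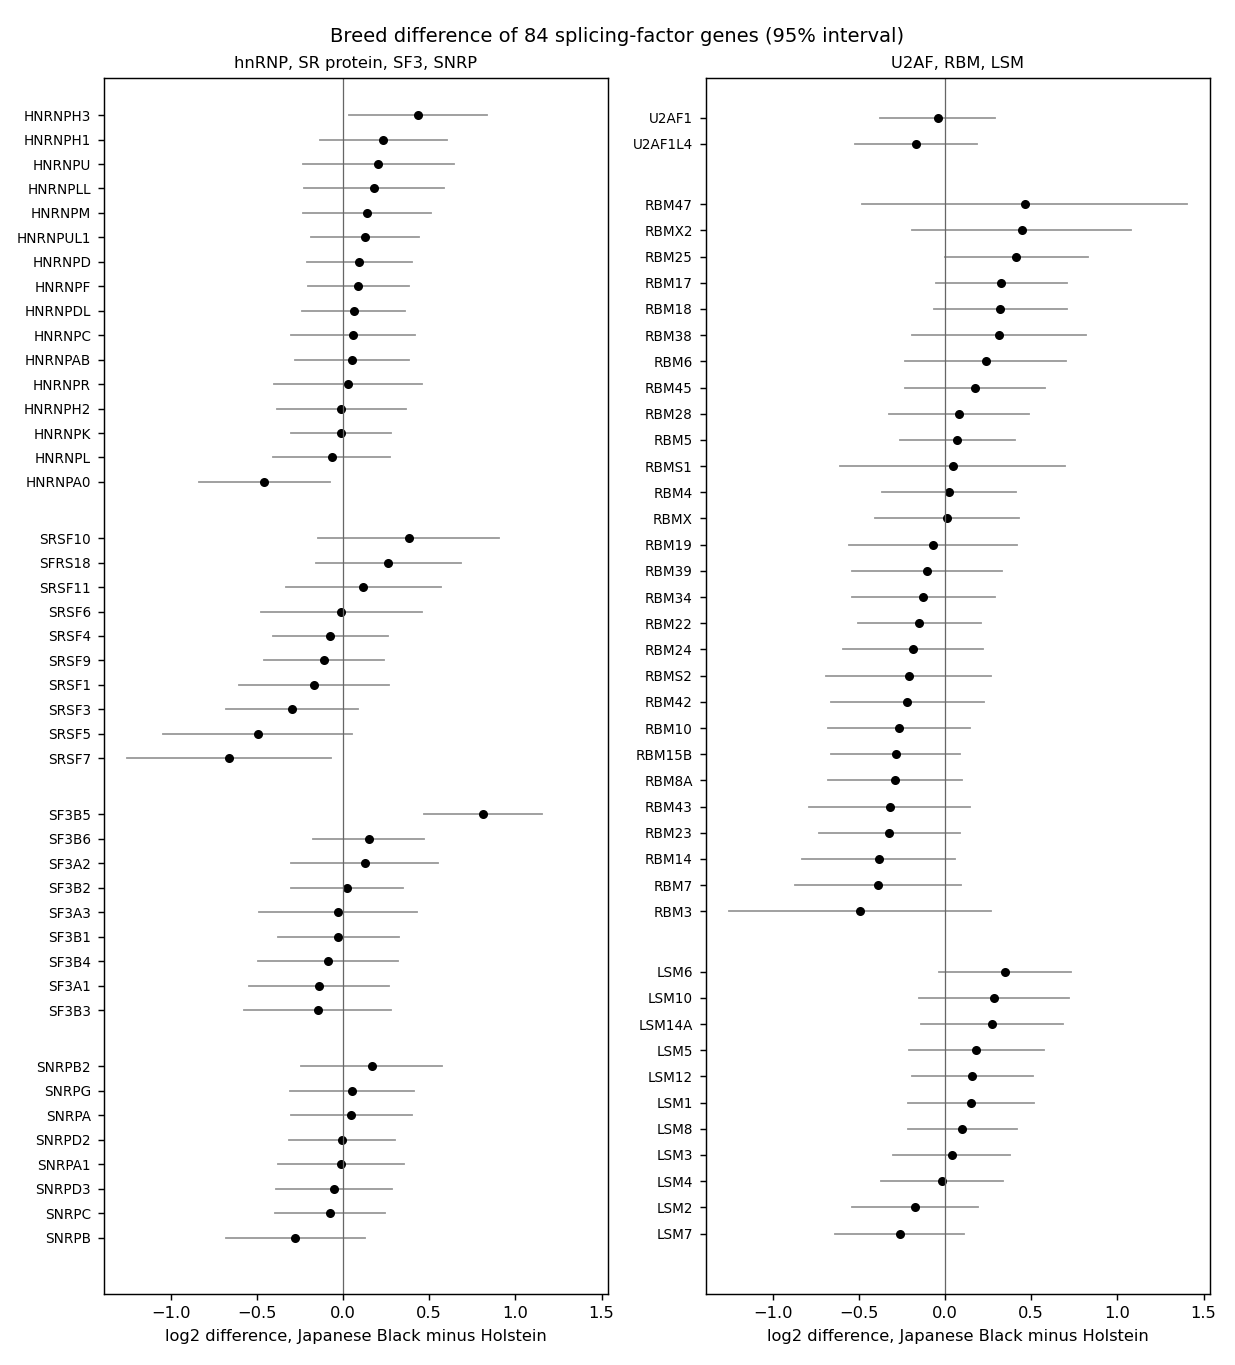
Log2 difference, Japanese Black minus Holstein, of the 84 genes at their brightest probe set, grouped by family, with points for limma's estimate and lines for its 95% interval. Most intervals cross 0, and SF3B5 at 0.81 lies farthest from 0 among all 84.

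The SF3 proteins form the SF3A and SF3B complexes of the U2 snRNP, which help to anchor it at the branch point of the intron. SF3B5, one of the smallest subunits of SF3B, had the largest difference. Its signal was 1134, 1451 and 1362 in Japanese Black steers, against 711, 728 and 778 in Holstein steers. Every Japanese Black steer lay above every Holstein steer, with the Holstein values close together. The means were 1316 ± 163 in Japanese Black and 739 ± 34.7 in Holstein (SD, n = 3 each), a log2 difference of 0.81 (95% interval 0.47 to 1.15) or 1.76-fold on that scale, which did not pass (adjusted p 0.148). Over 16 alternative settings the difference stayed between 0.74 and 0.91 and the adjusted p between 0.110 and 0.385. SF3B5 has a single probe set on the array, so no second probe set bears on it.

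The other proteins of the same complexes did not share that size. SF3B6, which contacts the branch point adenosine and is another small subunit of the complex, read 1415, 1751 and 1762 in Japanese Black steers, against 1407, 1544 and 1469 in Holstein steers, overlapping between breeds, with a difference of 0.15 (SE 0.14, adjusted p 0.664). SF3B1, the large scaffold of SF3B, read 728, 793 and 776 in Japanese Black steers, against 773, 898 and 684 in Holstein steers, with a difference of -0.028 (95% interval -0.38 to 0.32). Other SF3B1 probe sets differed by -0.18 (SE 0.17), 0.071 (SE 0.17) and 0.19 (SE 0.15). At the last of these, a dimmer one, the breeds were separate toward Japanese Black. PHF5A, an SF3B subunit whose name does not begin with SF3, had a difference of 0.031 (95% interval -0.24 to 0.30). Including PHF5A, the 6 SF3B subunits besides SF3B5 had differences between -0.15 and 0.15 at their brightest probe sets, 3 on each side of 0. At their brightest probe sets SF3B3 (-0.15 (SE 0.19)) and SF3B4, SF3B2 and the SF3A trimer were also within 0.15 of 0, with SF3A1 at -0.14 (SE 0.18). A second, dim SF3A2 probe set differed by -0.43 (SE 0.16, unadjusted p 0.022 by limma) and separated the breeds toward Holstein. The family of 9 SF3 genes had a median of -0.028, with 4 genes above 0 and 5 below.

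U2AF recognises the 3′ splice site and recruits the U2 snRNP. Its small subunit U2AF1 read 822, 1009.7 and 854 in Japanese Black steers, against 970.3, 866 and 926 in Holstein steers, overlapping between breeds, with a difference of -0.044 (SE 0.15, adjusted p 0.919). U2AF1L4, a close relative of the small subunit, read 172, 179 and 187 in Japanese Black steers, against 191, 195 and 226 in Holstein steers. The Holstein steers all lay above the Japanese Black steers for U2AF1L4, by a small margin, and the difference of -0.17 was near its standard error of 0.16 (adjusted p 0.658).

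The SNRP genes encode Sm core proteins and proteins specific to the U1 or U2 snRNP. They had the narrowest range of differences among the larger families. At their brightest probe sets the differences of 8 SNRP genes lay between -0.28 and 0.17, with a median of -0.010. Of these 0 had an unadjusted p under 0.05 by limma (against 11.3% of all genes) or separated the breeds (against 19.2%). SNRPB, which encodes the Sm proteins B and B′, had the smallest p at a brightest probe set. It read 963, 821 and 786 in Japanese Black steers, against 918, 942 and 1291 in Holstein steers, with a difference of -0.28 (SE 0.18, adjusted p 0.520) that was -0.12 without Holstein 3. Holstein 3 was the highest animal and Japanese Black 1 lay within the Holstein range. SNRPD3, another Sm ring protein, read 902, 878 and 901 in Japanese Black steers, against 922, 822 and 1053 in Holstein steers and differed by -0.053, or by 0.037 without Holstein 3. A second, dim SNRPD3 probe set, at 40.4 to 62.2 units, differed by -0.28 (SE 0.16) and separated the breeds toward Holstein. SNRPC, which helps the U1 snRNP bind the 5′ splice site, differed by -0.077 (SE 0.14), and SNRPB2, a U2 snRNP protein, by 0.17 (SE 0.18), or by 0.065 without Holstein 3. The remaining genes, SNRPA, SNRPA1, SNRPD2 and SNRPG, lay within 0.052 of 0.

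The LSM proteins 2 to 8 form the ring on U6 snRNA, and LSM1 replaces LSM8 in the cytoplasmic ring that promotes mRNA decay. Of 11 LSM genes 8 had a difference above 0, with a median of 0.15. That median was 0.058 after quantile normalization, and it was 0.063 when Japanese Black 2 was left out, 0.074 when Holstein 1 was and 0.076 when Holstein 3 was. LSM6 had the smallest p of the family. Its signal was 1229.9, 1548 and 1495 in Japanese Black steers, against 1017, 1342 and 1002 in Holstein steers, and Holstein 2 lay inside the Japanese Black range. The difference was 0.35 (SE 0.17, adjusted p 0.429). LSM7, a partner in the same ring, lay on the other side, at 290.4, 298 and 337 in Japanese Black steers, against 355, 338 and 429 in Holstein steers. The breeds did not overlap for LSM7, by the narrow gap between Japanese Black 3 and Holstein 2, and the difference was -0.26 (SE 0.16, adjusted p 0.515), or -0.16 without Holstein 3. The 7 subunits of the U6 ring did not share a direction: 4 were above 0 and 3 below, with a median of 0.038. LSM10, of the U7 snRNP that processes histone mRNA, differed by 0.28 (SE 0.19), and by 0.12 without Holstein 1. LSM14A read 692, 691 and 699 in Japanese Black steers, against 659, 637 and 443 in Holstein steers, with a difference of 0.27 (SE 0.18) that was 0.097 without Holstein 3, the lowest animal.

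Among the SR proteins SRSF7, which also takes part in mRNA export, had the lowest difference of the 84 genes. It read 728, 1431 and 944 in Japanese Black steers, against 1770.4, 1206 and 1861 in Holstein steers. Japanese Black 2 lay above Holstein 2, so the breeds overlapped, and Japanese Black 1 was the lowest animal. The means were 1034 ± 359.7 in Japanese Black and 1612 ± 355 in Holstein (SD, n = 3 each), with a difference of -0.66 (SE 0.26, adjusted p 0.372). Leaving out single animals moved it between -0.92 and -0.44. SRSF5 read 268, 375 and 409.7 in Japanese Black steers, against 645, 512 and 363 in Holstein steers, with a difference of -0.49 (SE 0.24, adjusted p 0.431) that was -0.31 without Holstein 1 and -0.32 without Japanese Black 1. SRSF3, the smallest SR protein and a regulator of the splicing of its own family, read 1431, 2034 and 1729.5 in Japanese Black steers, against 2440.2, 1924 and 1991 in Holstein steers, with a difference of -0.30 (SE 0.17, adjusted p 0.483) that was -0.17 without Japanese Black 1 and -0.19 without Holstein 1. For each of SRSF7, SRSF5 and SRSF3 the lowest animal was Japanese Black 1, and for SRSF5 and SRSF3 the highest was Holstein 1.

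SRSF10, which acts as a splicing repressor when dephosphorylated, lay on the other side of 0. Its values were 272, 407 and 332 in Japanese Black steers, against 327, 259 and 188 in Holstein steers, with overlap, and its difference was 0.38 (SE 0.23, adjusted p 0.505), or 0.18 without Holstein 3. The gene listed as SFRS18 differed by 0.26 (SE 0.18), or by 0.10 without Holstein 3, and SRSF11 by 0.12 (SE 0.20). The founding member SRSF1 differed by -0.17 (SE 0.19), with its other 2 probe sets at -0.18 and -0.023. SRSF4, SRSF6 and SRSF9 lay between -0.11 and -0.011. Over the 10 genes 3 were above 0 and 7 below, with a median of -0.092, and 0 separated the breeds, against 19.2% of all genes. Japanese Black 1 was the lowest of the 6 animals in 7 of the 10 genes and Holstein 3 in the other 3. Without Japanese Black 1 the median was 0.013.

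**Figure D2:**
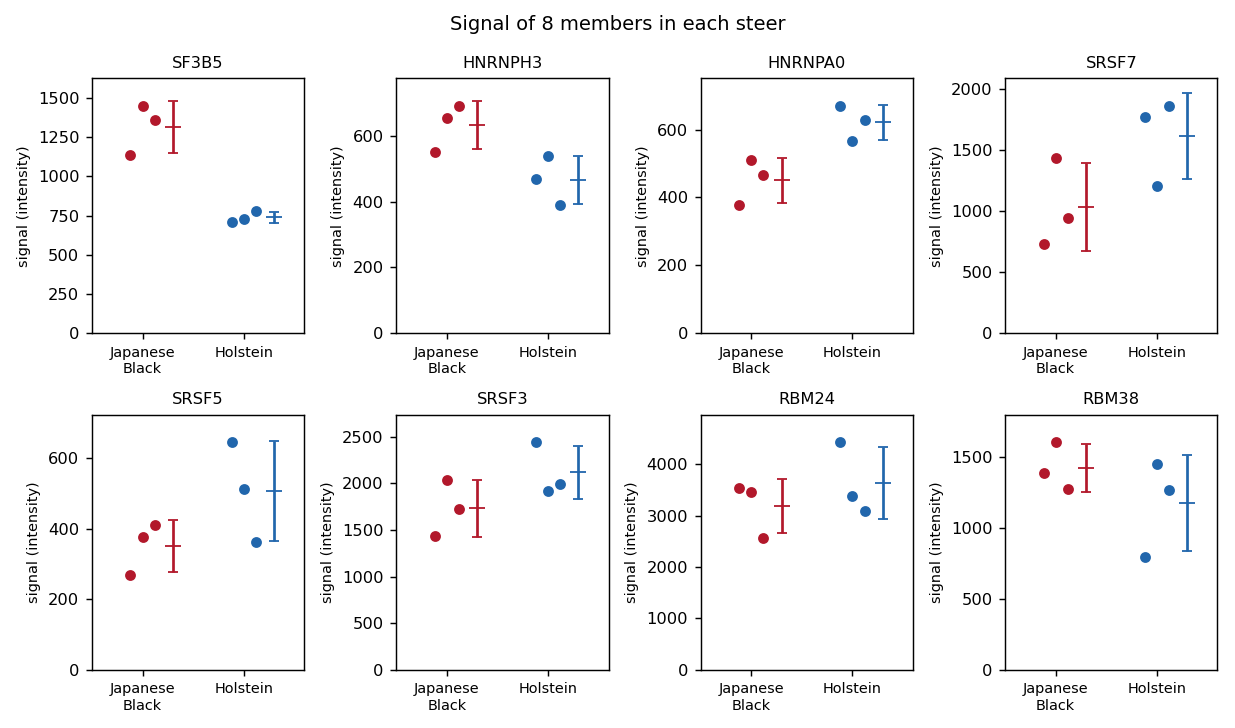
Signal in intensity units (vertical axis from 0) of 8 genes in each steer, with points for replicates 1 to 3 from left to right and the bar for the mean ± SD of the 3 steers of a breed. SF3B5, HNRNPH3 and HNRNPA0 separate the breeds, while the SR protein, RBM24 and RBM38 values overlap.

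Among hnRNPs, 12 of 16 genes had a difference above 0, with a median of 0.075. Single animals moved that median between 0.019, without Holstein 3, and 0.12, without Holstein 1 or Japanese Black 1. HNRNPA0, a member of the A/B group that binds AU-rich RNA, had the smallest p at a brightest probe set and lay on the Holstein side. Its signal was 379, 509 and 466 in Japanese Black steers, against 670.4, 568 and 629 in Holstein steers. The lowest Holstein steer was above the highest Japanese Black steer, and the means were 451 ± 66.5 in Japanese Black and 622 ± 51.7 in Holstein (SD, n = 3 each). The difference of -0.46 (SE 0.17) did not pass (adjusted p 0.355). Its second probe set differed by -0.25 with overlap, and another, dim one by 0.00077, so the mean over the 3 probe sets was -0.24.

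HNRNPH3 belongs to the H/F group, which binds runs of G in RNA. It read 551, 655 and 692 in Japanese Black steers, against 468, 537 and 391 in Holstein steers, with every Japanese Black steer above every Holstein steer. The means were 633 ± 72.7 in Japanese Black and 465 ± 73.4 in Holstein (SD, n = 3 each) and the difference 0.44 (SE 0.18, adjusted p 0.380). The other members of that group did not separate the breeds. HNRNPH1 read 2495, 3152 and 3111 in Japanese Black steers, against 2381, 2959 and 2128 in Holstein steers, with a difference of 0.23 (SE 0.16) that was 0.13 without Holstein 3, while HNRNPH2 and HNRNPF differed by -0.010 and 0.089. HNRNPU, a large nuclear scaffold protein, read 689, 744 and 837 in Japanese Black steers, against 852, 583 and 559 in Holstein steers and differed by 0.20 (SE 0.19), or between 0.096 without Holstein 3 and 0.39 without Holstein 1. For HNRNPU both the highest and the lowest animal were Holstein.

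The general hnRNPs had small differences at their brightest probe sets. HNRNPK, which binds C-rich RNA, differed by -0.013 (95% interval -0.30 to 0.28), HNRNPC, which binds runs of U, by 0.056 (95% interval -0.30 to 0.42), and HNRNPD, also called AUF1, by 0.094 (95% interval -0.21 to 0.40). HNRNPM, HNRNPL, HNRNPLL, HNRNPR, HNRNPAB, HNRNPDL and HNRNPUL1 lay between -0.065 and 0.18. Other probe sets of HNRNPLL differed by 0.25, with overlap, and by 0.62 at a dim one. That dim HNRNPLL probe set read 27.0, 31.5 and 28.4 in Japanese Black steers, against 14.35, 9.94 and 15.5 in Holstein steers. The breeds were separate there (SE 0.15, adjusted p 0.287), and its unadjusted p of 0.00247 was the smallest of the members' probe sets after that of SF3B5. HNRNPUL1 differed by 0.14, with overlap, at its second probe set and by 0.33 (SE 0.16, adjusted p 0.435) at another, where the breeds were separate. Leaving aside HNRNPA0 and HNRNPH3, the family's brightest probe sets lay between -0.065 and 0.23. Holstein 3 was the lowest animal in 11 of the 16 hnRNP genes, against 24.6% of all genes tested.

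The 28 RBM genes are defined by an RNA-binding domain and have mixed roles. Their differences ran between -0.49 and 0.46, 13 above 0 and 15 below, with a median of -0.087, which was 0.0033 without Japanese Black 1. At their brightest probe sets none had an unadjusted p under 0.05 by limma (0 of 28, against 11.3% of all genes), and 0 passed. There 3 (10.7%) separated the breeds, against 19.2%. Another probe set of RBM25 (unadjusted p 0.036 by limma) and of RBM17 (0.035) separated the breeds toward Japanese Black. A dim one of RBM28 (0.049) did so toward Holstein. None of these passed after adjustment. RBM25, a U1-associated regulator, had the smallest p at a brightest probe set. It read 67.5, 90.6 and 86.2 in Japanese Black steers, against 68.1, 57.9 and 45.9 in Holstein steers, where Japanese Black 1 lay just below Holstein 1. The difference was 0.41 (SE 0.18, adjusted p 0.397), and its second probe set differed by 0.43, while another, dim one differed by -0.025. RBM17, also called SPF45, is a factor of the late steps of 3′ splice site choice. It read 488, 611 and 459 in Japanese Black steers, against 442, 402 and 382 in Holstein steers and separated the breeds, with a difference of 0.33 (SE 0.17, adjusted p 0.451), or 0.21 without Japanese Black 2, and of 0.48 at its other probe set. RBM18 read 729, 842 and 781 in Japanese Black steers, against 748, 615 and 526 in Holstein steers, with a difference of 0.32 (SE 0.17) that was 0.20 without Holstein 3. RBM14, a coactivator found in paraspeckles, lay on the Holstein side at 174, 213 and 192 in Japanese Black steers, against 273, 199 and 309 in Holstein steers. Japanese Black 2 was above Holstein 2, and the difference was -0.39 (SE 0.20, adjusted p 0.447). RBM23 and RBM15B separated the breeds toward Holstein, with differences of -0.32 (SE 0.18) and -0.29 (SE 0.16). Without Japanese Black 1 the RBM23 difference was -0.19. At a second, dimmer probe set of each gene the breeds overlapped, with differences of -0.18 for RBM23 and -0.067 for RBM15B.

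Members tied to muscle did not separate the breeds. RBM24 is a muscle-enriched splicing regulator that is needed for sarcomere assembly in mouse heart. Its signal was 3534, 3461 and 2573 in Japanese Black steers, against 4429, 3393 and 3089.8 in Holstein steers. The highest animal was Holstein 1 and the lowest Japanese Black 3, with a difference of -0.19 (SE 0.18, adjusted p 0.666) and a 95% interval of -0.59 to 0.22. It was -0.036 without Holstein 1 and -0.039 without Japanese Black 3. RBM38, a relative of RBM24 that acts in the differentiation of mouse muscle cells, read 1391, 1604 and 1274 in Japanese Black steers, against 798, 1455 and 1269 in Holstein steers. Holstein 1 lay well below the other animals and Holstein 2 inside the Japanese Black range. The difference was 0.31 (SE 0.22, adjusted p 0.562), and it was 0.059 without Holstein 1. RBM20, the titin splicing factor of heart and muscle, was not among the genes named by a single-symbol probe set and was not analysed here.

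Some RBM genes varied widely within a breed. They are named after their values were seen, as the 3 of the 84 genes with the widest mean range within a breed. RBM47, an RNA-binding protein best known from epithelia, read 152, 177 and 378 in Japanese Black steers, against 173, 254 and 80.1 in Holstein steers. Japanese Black 3 was highest and Holstein 3 lowest, and the adipocyte marker list had the same animals at its ends. RBMS1 read 382, 290.3 and 628 in Japanese Black steers, against 457, 468 and 297 in Holstein steers, also with Japanese Black 3 highest. The mean log2 level of the 8 adipocyte markers measured, of 10 listed, deviated from the mean of all arrays by -0.54, -0.31 and 1.29 in the Japanese Black steers, against 0.28, 0.70 and -1.43 in the Holstein steers. Their summed signal ran from 7130 to 24516 in Japanese Black, against 3231 to 17114 in Holstein, and 0 of the markers were listed at 0. The smooth muscle and pericyte markers were also highest in Japanese Black 3 (0.80) and lowest in Japanese Black 2 (-0.63), as was RBMS1. The skeletal muscle fibre (0.055) and the Schwann cell and nerve (0.27) lists were highest in Japanese Black 3 as well. The endothelial, fibroblast, leukocyte and erythrocyte marker lists were highest in a Holstein steer. For fibroblasts this was narrow, at 0.33 in Holstein 1 and 0.32 in Japanese Black 3, and their highest summed signal was in Japanese Black. Japanese Black 3 was the highest animal for 32% of all genes and 21.4% of the 84. The part of fat cells or of other cell types in these genes was not tested. RBM3 read 196, 253 and 347 in Japanese Black steers, against 639.8, 319 and 247 in Holstein steers, with Holstein 1 the highest. CIRBP, the other well-known cold-inducible RNA-binding protein and not one of the 84 genes, read 544, 567 and 584 in Japanese Black steers, against 1058, 629 and 642 in Holstein steers, again highest in Holstein 1. For CIRBP every Holstein steer lay above every Japanese Black steer, while for RBM3 the breeds overlapped. Differences of the breeds were -0.49 (SE 0.34, adjusted p 0.546) for RBM3 and -0.41 (SE 0.21, adjusted p 0.453) for CIRBP. Without Holstein 1 they were -0.11 for RBM3 and -0.17 for CIRBP.

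Seen by animal, the families did not move as 1 block. The mean log2 deviation of the 84 genes from the mean of all arrays was -0.13, 0.080 and 0.063 in the Japanese Black steers, against 0.042, 0.0030 and -0.055 in the Holstein steers. Over all genes tested the same means were -0.065, -0.036 and 0.10 in Japanese Black, against -0.0073 to 0.0057 in Holstein. Japanese Black 1 was the lowest animal in 29 of the 84 genes (34.5%, against 19.9% of all genes) and the highest in 2. Holstein 3 was the lowest in 30 (35.7%, against 24.6%) and the highest in 20. SR proteins gave the widest spread, between -0.30 in Japanese Black 1 and 0.21 in Holstein 1. The SNRP family ran between -0.068 and 0.093 and the LSM family between -0.087 and 0.080. Holstein 3 was the lowest animal for hnRNPs, at -0.17, but the highest for the SNRP and U2AF families, at 0.093 and 0.13. The median range over 3 animals was 0.29 in Japanese Black and 0.38 in Holstein, and the median size of the breed difference was 0.15. The range is over single animals and the difference is of 3-animal means, so their sizes are not directly comparable. The same medians over all genes were not computed.

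**Figure D3:**
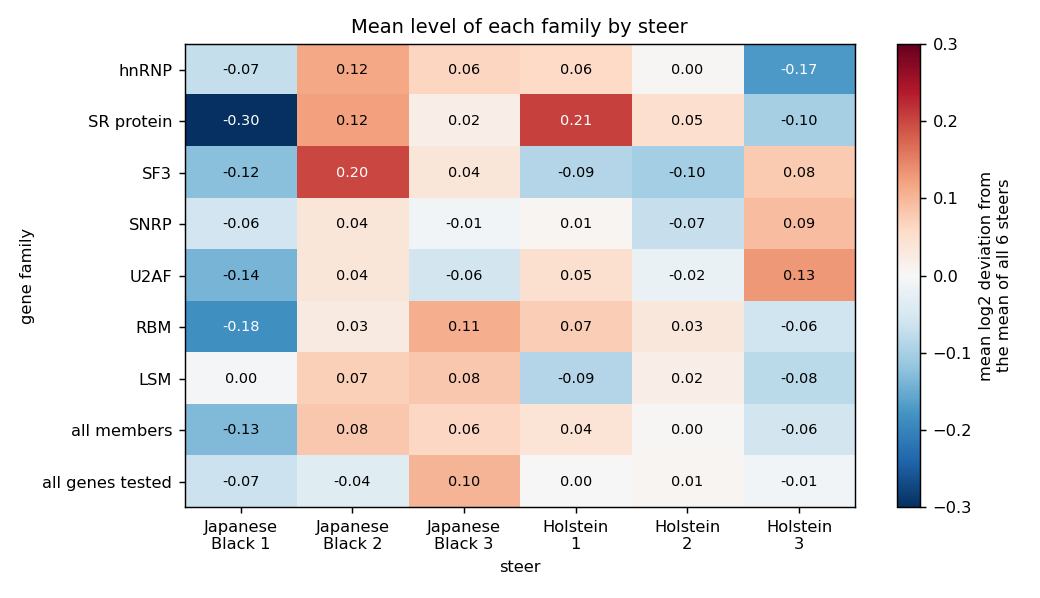
Mean log2 deviation of each family's genes from the mean of all 6 steers (colour and printed value), by steer along the horizontal axis and by family down the vertical axis. The SR proteins run from -0.30 in Japanese Black 1 to 0.21 in Holstein 1, and within each breed the signs differ between animals.

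Of the 84 genes 30 had more than 1 probe set, and in 16 of these all probe sets had the same sign while in 14 they differed. In 3 of the 14, RBM18, RBM47 and SRSF11, the disagreement rests on dim probe sets that were left out of the test. Over tested probe sets, 15 of 26 genes had 1 sign and 11 had both. Genes whose probe sets differed in sign include SF3A2, at 0.13 and -0.43, RBM28, at 0.082 and -0.35, and LSM5, at 0.18 and -0.12. Their second probe sets were tested but dim, at 11.2 to 30.1 units for SF3A2, 12.8 to 28.9 for RBM28 and 19.7 to 29.8 for LSM5. RBM22 differed in sign, at -0.15 and 0.097, with a second probe set of 131 to 168 units. Probe sets of 1 gene can lie in different transcript ends, and the array does not measure which exons are joined, so splicing itself was not measured.

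Genes of the same pathway with other names were read from lists by role, which are described and were not tested as lists. The lists were chosen with earlier results of these data known, so their shares beside those of all genes are description only. In the list of muscle and tissue-specific splicing regulators 13 of 28 genes were tested, 9 above 0 and 4 below, with a median of 0.19, and 0 passed. The list also holds widely expressed RNA-binding proteins, among them ELAVL1, KHDRBS1 and TIAL1 above 0 and PTBP1 below. At an unadjusted p under 0.05 there were 3, all toward Japanese Black, or 23.1% against 11.3% of all genes. The breeds did not overlap for 7, or 53.8% against 19.2%, of which 6 lay toward Japanese Black, ELAVL1 among them. MBNL2, a muscleblind protein that drives the adult splicing pattern and is sequestered in myotonic dystrophy, read 251, 365 and 275 in Japanese Black steers, against 175, 195 and 107 in Holstein steers. The breeds were separate, and the difference was 0.86 (SE 0.24, adjusted p 0.313). Its relative MBNL3 read 167, 114 and 104 in Japanese Black steers, against 88.0, 75.7 and 57.6 in Holstein steers, also separate, with a difference of 0.67 (SE 0.22, adjusted p 0.330). QKI, a STAR protein that regulates muscle exons, read 512, 482 and 441 in Japanese Black steers, against 355, 291 and 283 in Holstein steers, with a difference of 0.60 (SE 0.16, adjusted p 0.302). The lowest Japanese Black steer was above the highest Holstein steer for each of these. MBNL1 was not analysed here. The CELF proteins, which oppose muscleblind proteins on many exons, did not share a direction: of 4 tested 1 was above 0 and 3 below, with CELF1 at 0.19 (SE 0.19). Of the 3 below 0, CELF4 and CELF6 were dim, at 24.0 to 38.4 and 19.5 to 37.1 units. The brighter CELF3 differed by -0.26 (SE 0.17). Without single animals the list's median lay between 0.11, without Holstein 3, and 0.25, without Holstein 1, and its count at an unadjusted p under 0.05 between 2 and 4.

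SR protein kinases and SR-related proteins had 14 of 22 tested genes above 0 and 8 below, with a median of 0.11 and 0 passing. Of the 22, 3 (13.6%, against 11.3% of all genes) had an unadjusted p under 0.05 by limma. The breeds were separate for 5 (22.7%, against 19.2%), so both shares were near those of all genes. The median was 0.026 without Japanese Black 3 or with array weights, 0.044 without Holstein 3 and 0.061 after quantile normalization. CLK1, a nuclear kinase that phosphorylates SR proteins, read 542, 677 and 607 in Japanese Black steers, against 426, 482 and 378 in Holstein steers. The breeds did not overlap, and the difference was 0.49 (SE 0.17, adjusted p 0.338). A second CLK1 probe set was near 0 units on all arrays. CLK2 and CLK3 lay on the other side, at -0.17 (SE 0.16) and -0.099 (SE 0.16). SRRM2, a large scaffold of nuclear speckles, read 1343, 1389 and 1027 in Japanese Black steers, against 978, 937 and 942 in Holstein steers, with a difference of 0.38 (SE 0.16, adjusted p 0.385). ACIN1, a partner of the exon junction complex, lay toward Holstein at 234, 255 and 251 in Japanese Black steers, against 309.6, 329 and 334 in Holstein steers, with a difference of -0.37 (SE 0.15, adjusted p 0.378). The breeds were separate for both.

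**Figure D4:**
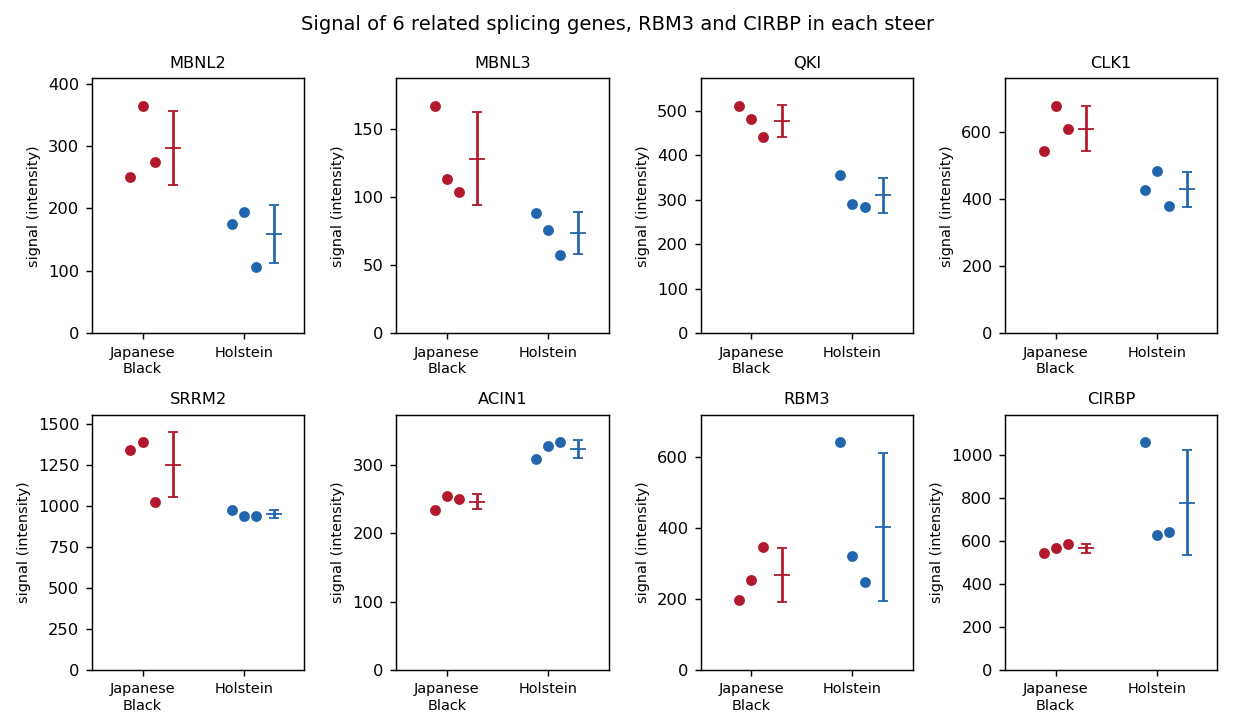
Signal in intensity units (vertical axis from 0) of MBNL2, MBNL3, QKI, CLK1, SRRM2, ACIN1, RBM3 and CIRBP in each steer, with points for replicates 1 to 3 from left to right and the bar for the mean ± SD of the 3 steers of a breed. MBNL2, MBNL3, QKI, CLK1 and SRRM2 are higher in every Japanese Black steer, and ACIN1 and CIRBP are higher in every Holstein steer. RBM3 and CIRBP are highest in Holstein 1.

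The core of the spliceosome outside the chosen prefixes had 43 genes tested of 56 listed, 22 above 0 and 21 below, with a median of 0.00019 and 0 passing. Of these 3 (6.98%, against 11.3% of all genes) had an unadjusted p under 0.05, a count of 1 to 5 with 1 animal left out (1 without Japanese Black 1 or Holstein 3, 5 without Holstein 1). The breeds were separate for 9 (20.9%), near the 19.2% of all genes. PRPF38B read 180.4, 211 and 177 in Japanese Black steers, against 140.3, 138 and 104 in Holstein steers, with a difference of 0.52 (SE 0.18, adjusted p 0.336), and its second probe set differed by 0.20. DDX46, a helicase that works with the U2 snRNP, read 133, 119 and 116 in Japanese Black steers, against 96.0, 88.0 and 69.8 in Holstein steers, with a difference of 0.47 (SE 0.17, adjusted p 0.349). Both lay toward Japanese Black in all animals. SART1, a tri-snRNP protein, lay toward Holstein at 154, 148 and 146 in Japanese Black steers, against 179, 189 and 244 in Holstein steers, with a difference of -0.40 (SE 0.17, adjusted p 0.392), and its 3 other probe sets differed by -0.29, -0.042 and -0.035. Also separate toward Holstein were SNRNP70, the U1 protein that binds the stem of U1 RNA (-0.31 (SE 0.16)), SNRNP200, the helicase that unwinds U4 from U6 (-0.23 (SE 0.14)), SNRNP35, PUF60, PRPF4 and PPIH. These were named after their values were seen.

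Other abundant nuclear RNA-binding proteins had 8 of 17 genes above 0 and 9 below, with a median of -0.038. Of the 17, 1 (5.88%, against 11.3% of all genes) had an unadjusted p under 0.05 by limma. The breeds were separate for 4 (23.5%, against 19.2%). PCBP3, a poly(C)-binding protein, read 59.5, 88.5 and 69.0 in Japanese Black steers, against 100.01, 99.96 and 248 in Holstein steers, with Holstein 3 far above the rest. Every Holstein steer lay above every Japanese Black steer. The PCBP3 difference was -0.80 (SE 0.32, adjusted p 0.372), or -0.41 without Holstein 3, against 0.22 and 0.0027 at its other probe sets, where the breeds overlapped. EWSR1, an RNA-binding protein of the FET family, read 203, 197 and 241 in Japanese Black steers, against 290.5, 251 and 272 in Holstein steers, separate toward Holstein, with a difference of -0.33 (SE 0.16, adjusted p 0.436). The SMN complex, which assembles Sm rings, and the exon junction complex had 6 of 12 genes on each side, with a median of -0.0039. Of the 12, 1 (8.33%, against 11.3%) had an unadjusted p under 0.05 by limma, and 2 (16.7%, against 19.2%) separated the breeds. STRAP, of the SMN complex, read 2136, 2221 and 2276 in Japanese Black steers, against 2076, 1825 and 1547 in Holstein steers and differed by 0.29 (SE 0.14, adjusted p 0.431), or by 0.18 without Holstein 3. The dim UPF3B, of nonsense-mediated decay, read 66.5, 54.8 and 49.4 in Japanese Black steers, against 41.2, 46.2 and 22.3 in Holstein steers and differed by 0.50 (SE 0.21, adjusted p 0.392), or by 0.28 without Holstein 3. Both separated the breeds toward Japanese Black. GEMIN6, an SMN complex protein, read 173, 248 and 199.6 in Japanese Black steers, against 154, 210.0 and 109.6 in Holstein steers, with overlap, and differed by 0.39 (SE 0.24, adjusted p 0.510), or by 0.17 without Holstein 3. In these 2 lists 0 genes passed.

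Among 18 transcripts known to be spliced by RBM20 in rat or human heart, 8 were tested, 4 on each side of 0, with a median of 0.018 and 0 passing. Of the 8, 1 (12.5%, against 11.3% of all genes) had an unadjusted p under 0.05 by limma. The breeds were separate for 1 (12.5%, against 19.2%). FHOD3, a formin that builds sarcomeric actin, read 159, 174 and 159 in Japanese Black steers, against 315, 224 and 353 in Holstein steers. The breeds were separate, and the difference was -0.78 (SE 0.19, adjusted p 0.287). LDB3, a Z-disc protein, read 4204, 4765 and 4338 in Japanese Black steers, against 5411, 4685 and 4867 in Holstein steers and differed by -0.17 (SE 0.11), and the kinase gene CAMK2D read 1541, 1348 and 1444 in Japanese Black steers, against 1523, 1100.4 and 1071 in Holstein steers and differed by 0.24 (SE 0.17), between 0.15 without Holstein 3 and 0.41 without Holstein 1. Both overlapped between breeds. These are summed probe signals and do not tell isoforms apart.

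The arrays matched their labelled tissue. The 10 skeletal muscle markers measured summed to between 129754 and 136731 units in Japanese Black, against 132121 to 132447 in Holstein. Endothelial markers had 9 of 10 genes below 0, with summed signals of 2214 to 3299 in Japanese Black and 3094 to 3885 in Holstein. Fibroblast markers had 7 of 9 below 0, with sums of 7904 to 13779 in Japanese Black and 10789 to 12351 in Holstein. No marker of these lists was listed at 0 (0 of 29), and their part in the differences above was not tested. Some technical measures separated the breeds and others overlapped. The 3′ to 5′ ratio of the actin control was 1.11 to 1.14 in Japanese Black and 1.003 to 1.07 in Holstein. The BioC hybridisation control read 820.0 to 945 in Japanese Black and 956 to 1417 in Holstein, with Holstein 3 highest, and the BioDn control also separated them, at 2934 to 3064 in Japanese Black and 3378 to 4394 in Holstein. Overlapping were the 3′ to 5′ ratio of the GAPDH control, at 0.858 to 0.928 in Japanese Black and 0.796 to 0.884 in Holstein, and the BioB and CreX controls. Japanese Black 3 had an upper quartile of 205 units, while the others had 172 to 180.6. Whether these measures bear on the differences of single genes was not tested.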

How the data were processed

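Total RNA was the starting material for the Affymetrix arrays, 1 per steer, per the labels' protocols. The authors deposited 1 linear intensity per probe set and array, 24128 in all. The software named in the submitters' processing notes is GCOS 1.1.1 and Affymetrix Expression Console 1.1. How probes were summarised, and to what target arrays were scaled, is not given in the sources used here. No further scaling was applied. The 112 control probe sets and the dimmest 25% of the others were left out, which left 18012. Log2(intensity + 16) was compared between breeds with limma 3.58.1 in R 4.3.3 (lmFit, eBayes with intensity trend), two-sided and unpaired, with 4.91 prior degrees of freedom and Benjamini-Hochberg adjustment. Whether each steer's RNA came from 1 extraction is not stated. The p-values rest on the spread between these 3 animals per breed, which limma drew toward the intensity trend over all probe sets tested.

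Gene names came from the platform annotation, in which 13292 of 24016 probe sets had 1 symbol, 86 several and 10638 none. Of these, 3 probe sets that pair a splicing gene with another gene were not used. All 84 gene identifiers matched RefSeq assembly ARS-UCD2.0 and 0 symbols changed. No promoter or protein sequences were used here, so the planned description of them was not made. Each gene is read at its probe set of highest mean log2. Named were genes past the adjusted threshold, the up to 4 smallest p per family, all U2AF genes, RBM20, RBM24 and RBM38, and the up to 3 smallest p per related list. Others are given to complete a family or a count, or were chosen after their values were seen. The genes and lists were chosen with earlier results of these data known. This fit was first tested on simulated data. Plots used matplotlib 3.10.9 and Python 3.11.15.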

Additional observations from a re-analysis of the deposited data

How the results depend on the processing

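The settings tried were an offset of 1 or 64, no filter, the dimmest 50% left out, quantile normalization, median centring, no intensity trend, a plain unpaired t-test, array weights, the mean over all probe sets of a gene, and leaving out each array. No paired analysis was possible because no label tells which steers make up the pairs of the paired t-test that the series design names. Members past the adjusted threshold numbered 0 in all 16 alternatives. The median log2 difference of the 84 genes stayed within the spread between animals, between -0.070 after quantile normalization and 0.056 without Japanese Black 1. Members at unadjusted p under 0.05 numbered 2 higher and 2 lower in Japanese Black as reported. They were 2 and 5 after quantile normalization, 4 and 2 after median centring, 1 and 1 with the plain t-test, 1 and 3 with array weights, and 4 and 1 with the mean over probe sets. The higher count was 3 with an offset of 1, without the filter or without the trend. Leaving out single animals gave 1 to 5 higher (5 without Japanese Black 1, 4 without Holstein 1) and 0 to 4 lower (0 without either of these, 4 without Japanese Black 2 or Holstein 2). Genes without overlap numbered 4 higher and 6 lower, 3 and 12 after quantile normalization, and 4 to 17 higher and 7 to 16 lower with 1 animal left out, which makes separation easier: over all probe sets the share was then 25.3% to 33.9%, against 19.8%. Of 448 values of 28 named members under alternatives 446 kept their sign and side of the threshold. The others were SNRPD3, which with 1 animal left out ran from -0.14 to 0.037 (the highest without Holstein 3), and U2AF1, which ran from -0.13 to 0.014 (the highest without Japanese Black 1). All 287 values of 18 named related genes kept theirs. Leaving out 1 animal moved the difference by over 1.5 times for 22 of the 28 named members, all but SF3B5, HNRNPA0, HNRNPH3, LSM6, RBM14 and RBM25, and for 7 of the 18 related genes. Of 112 family medians 6 moved by more than the spread between animals, 4 of them LSM medians. The SNRP and U2AF medians were -0.11 and -0.19 after quantile normalization. Causes were not tested.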

Other observations

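Further regulators of splicing are given here after their values were seen, and 0 of them passed. SRPK3, the SR protein kinase expressed mainly in striated muscle, read 309, 251 and 259.8 in Japanese Black steers, against 362, 308 and 446 in Holstein steers. Holstein 2 lay inside the Japanese Black range by a margin of under 1 unit, and the difference was -0.41 (SE 0.19, adjusted p 0.401). FXR1, an RNA-binding protein with muscle-specific isoforms, read 2673, 2855 and 2644 in Japanese Black steers, against 2536, 2512 and 1639 in Holstein steers. The breeds did not overlap, Holstein 3 was far below the rest, and the difference was 0.31 (SE 0.18, adjusted p 0.483), or 0.11 without Holstein 3. RBFOX2, a regulator of muscle exons, read 331, 318 and 299 in Japanese Black steers, against 288, 291 and 242 in Holstein steers, separate by a small margin, with a difference of 0.20 (SE 0.16, adjusted p 0.605), or 0.12 without Holstein 3. TARDBP, which encodes the nuclear RNA-binding protein TDP-43, varied widely within both breeds. It read 563, 1087 and 810.4 in Japanese Black steers, against 631, 774 and 484 in Holstein steers, with a difference of 0.35 (SE 0.26, adjusted p 0.578), or 0.12 without Japanese Black 2.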
